A study of Mus musculus with 10 samples.

Results

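Transcription factors of the chondrocyte and the matrix proteins it secretes were followed gene by gene in knee cartilage. The mice compared were wild-type or labelled null for the microRNA gene Mir324. The set held 10 named genes of the 35705 genes summed from the deposited transcript table. They were the regulators Sox9, Sox5 and Sox6, and the products Acan, Comp, Hapln1, Chad, Cnmd, Snorc and Matn3. All 10 were found by symbol, and 9 had a mean of at least 1 TPM (a length-corrected share of a library's transcripts) and entered the fit across all genes. Matn3 did not, and was kept only in the comparisons made over the 10 members.

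The data came from 10 libraries of total RNA, each from the dissected cap of the medial knee of a single mouse. The groups were 5 mice labelled as wild-type controls and 5 labelled Mir324-null, and neither group was treated. How the null allele was made, the strain, age, sex and litter of the mice, and any sequencing batch are not given in the labels. Read depth is unknown, because TPM values carry no counts. Between 13386 and 14299 genes per library reached 1 TPM.

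Cartilage is built by chondrocytes, whose identity is set by SOX9, a DNA-binding factor of the HMG-box family that activates the collagen II and aggrecan genes. SOX5 and SOX6 are close relatives that lack an activation domain of their own and bind beside SOX9 at cartilage enhancers, and SOX6 also acts in red cell precursors, where it helps to silence embryonic globin. The matrix that results is a collagen II network filled with aggrecan, whose chains hold water, tied to hyaluronan by link protein and bound by smaller adaptor proteins. Mir324 gives rise to a 5p and a 3p mature strand, and a microRNA lowers messenger RNAs that pair with its seed, the stretch of bases near its 5′ end.

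The mature strands are shown because they are the products of the gene that the labels give as null. The seed, bases 2 to 8, is in capitals. They are RefSeq sequences on the plus strand of GRCm38.p6, at chr11:70012060-70012082 for the 5p strand and chr11:70012095-70012114 for the 3p strand.
miR-324-5p: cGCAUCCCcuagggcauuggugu
miR-324-3p: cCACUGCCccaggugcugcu
The DNA letters that pair with these seeds are gggatgc and ggcagtg, and each member's longest 3′ UTR in GENCODE M21 was scanned for both. A match was found in 2 of the 10 members, Sox5 and Sox6, in both cases to miR-324-3p and without the adenosine that would extend it. No member held a match to miR-324-5p. For comparison, 15.4% of the 12601 tested genes that have a 3′ UTR in GENCODE matched miR-324-3p, and 8.5% matched miR-324-5p. The Sox5 and Sox6 UTRs, at 4839 and 6046 bases, were long beside the median of 1149. The matches lie at position 1850 of the Sox5-201 UTR and 3122 of the Sox6-210 UTR, and are printed in 30 bases of context with the match in capitals.
Sox5: caaaaggtcaaGGCAGTGgtaggcagacaa
Sox6: agcttcagtgaGGCAGTGtctaccctcagc
A match is a description of letters, not a measured site. Of these genes, Sox6 had a higher mean and Sox5 a lower mean in Mir324-null cartilage, with values given below for each mouse.

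RefSeq promoter windows were available for 7 of the 10 members, as 12 windows, 6 of them for Sox6. Sox9, Comp and Snorc had none. Each window runs from 250 bases before to 50 bases after a start site. Both strands were searched for the SOX core letters ACAATG and ACAAAG and for the GATA letters AGATAA. No window of Acan, Hapln1, Chad, Cnmd or Matn3 held any of these letters, while 28.6% of the 32851 windows in the RefSeq table held a SOX core and 11.2% held AGATAA. The Sox5 window held ACAATG. For Sox6, whose transcripts begin at several sites, the window of the most abundant transcript, Sox6-210, held ACAAAG. A window further inside the gene, at the start of Sox6-203, held ACAAAG and AGATAA overlapping each other. AGATAA was in no other Sox6 window. The windows at the starts of Sox6-201, Sox6-204 and Sox6-205 also held SOX cores, and the remaining Sox6 window held none. The 180 bases before the start are shown for Acan, a target of SOX9, and for Chad, the most abundant member. They are also shown for the Sox6-210 and Sox6-203 starts. Acan ran against Sox6 over all 10 mice, but not within the null mice alone, with values given below. The Acan start used lies more than 100 bases from any GENCODE M21 transcript start of that gene. Motifs are in capitals and read on the strand of the gene, in GRCm38.p6, from chr7:79053046-79053225 on the plus strand for Acan, chr11:94564867-94565046 on the plus strand for Chad, chr7:116031048-116031227 on the minus strand for Sox6-210 and chr7:115846141-115846320 on the minus strand for Sox6-203.
Acan: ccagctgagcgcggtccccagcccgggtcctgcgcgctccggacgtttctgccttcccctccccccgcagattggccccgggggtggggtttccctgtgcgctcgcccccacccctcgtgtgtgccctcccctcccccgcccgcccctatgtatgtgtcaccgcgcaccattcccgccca
Chad: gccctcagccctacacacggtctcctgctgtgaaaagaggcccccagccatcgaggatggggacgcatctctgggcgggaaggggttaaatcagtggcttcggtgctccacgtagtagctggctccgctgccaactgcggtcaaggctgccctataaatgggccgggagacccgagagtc
Sox6-210: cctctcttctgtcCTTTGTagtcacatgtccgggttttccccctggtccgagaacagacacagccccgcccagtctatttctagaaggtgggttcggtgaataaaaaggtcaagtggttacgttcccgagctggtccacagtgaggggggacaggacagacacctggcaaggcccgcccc
Sox6-203: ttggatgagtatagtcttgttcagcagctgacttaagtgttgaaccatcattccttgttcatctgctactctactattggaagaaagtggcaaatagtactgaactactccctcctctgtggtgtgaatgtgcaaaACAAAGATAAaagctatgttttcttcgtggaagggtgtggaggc
These windows do not reach the distant enhancers of the genes, so that the letters in them say nothing of whether SOX factors act on the members.

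No member passed the test for a genotype difference. With limma on log2(TPM + 1) and Benjamini-Hochberg adjustment over 13841 genes, 0 of 9 members had an adjusted p under 0.05, as did 0% of all genes, the smallest value over all genes being 0.277. Without adjustment, at p under 0.05, 4 members were lower in Mir324-null cartilage (Sox9, Acan, Hapln1 and Snorc), beside 7.3% of all genes, and 1 was higher (Sox6), beside 4.28%. The count of 4 was 2 without wild-type replicate 4 or null replicate 1. Estimates were below 0 for 7 of 9 members, as they were for 60% of all genes. The median over the members was -0.64, beside -0.05 over all genes. In 0 of 9 members did the null mice all lie below or all lie above the wild-type mice, which held for 1.06% and 0.881% of all genes.

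**Figure D1:**
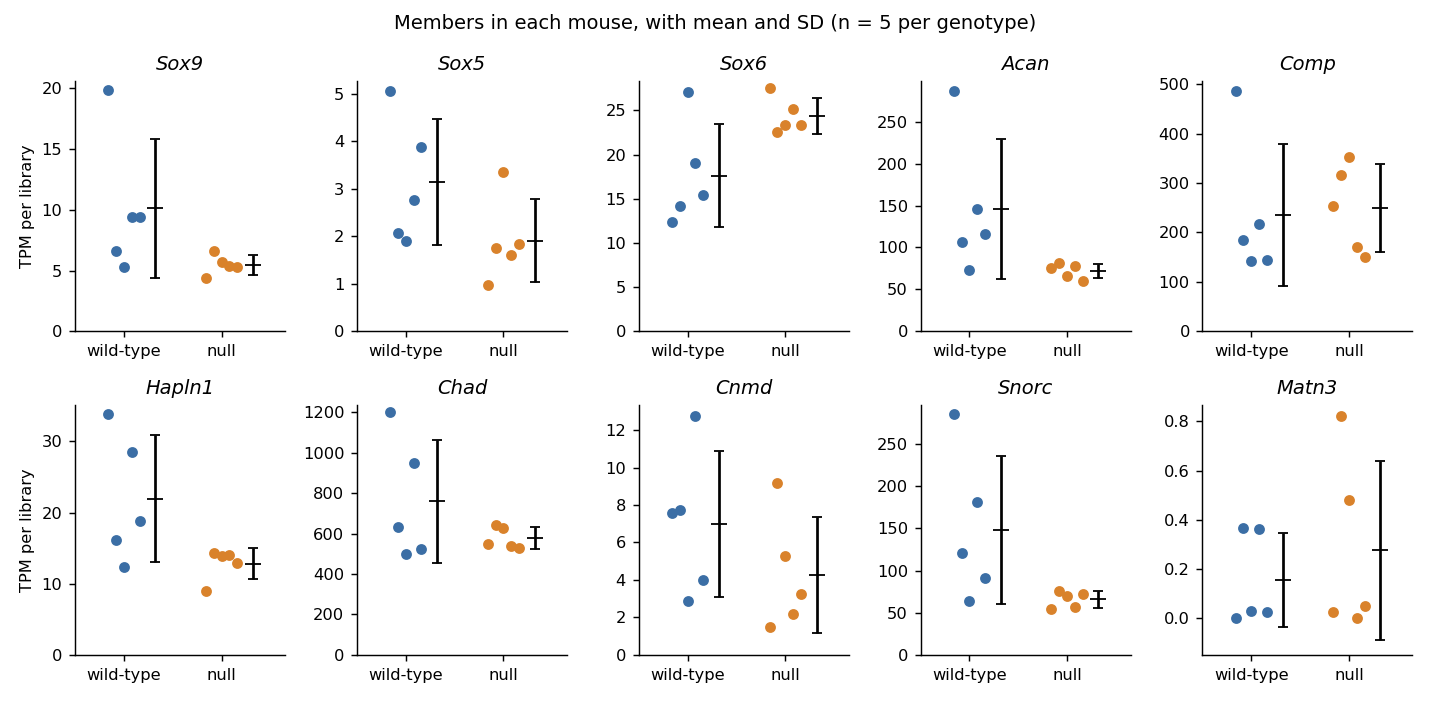
TPM of each member in every library (points, replicates 1 to 5 from left to right), with the mean and SD of each genotype (bars, n = 5), each panel on its own linear axis. Wild-type replicate 1 is the highest point for 7 members, and the null points of Sox9, Acan, Chad and Snorc sit in a narrow band inside or just under the wild-type range.

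Sox9 (ENSMUSG00000000567, chr11:112782224-112787760 in GRCm38) is the regulator on which chondrocyte identity depends. Wild-type replicates 1 to 5 stood at 19.8, 6.63, 5.27, 9.40 and 9.42 TPM. The null replicates, in the same order, stood at 4.34, 6.57, 5.73, 5.34 and 5.33 TPM. Wild-type replicate 1 lay far above the other mice, and wild-type replicates 2 and 3 lay within or close to the null range, so the groups overlapped. The means were 10.1 ± 5.73 and 5.46 ± 0.804 TPM (SD, n = 5 each). The difference of -0.66 on the log2(TPM + 1) scale (SE 0.268, limma, unadjusted p = 0.0303, adjusted p = 0.382) became -0.40 without wild-type replicate 1. The two-sided exact permutation test gave p = 0.0635. This test, over all ways of dividing the mice into 5 and 5, cannot give less than 0.00794.

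Sox5 (ENSMUSG00000041540, chr6:143828425-144781977), a partner of Sox9, was low throughout. Its wild-type replicates stood at 5.06, 2.07, 1.90, 2.77 and 3.89 TPM. In null mice it stood at 0.977, 1.76, 3.35, 1.60 and 1.84 TPM. Of the null mice, 4 lay below every wild-type mouse, while null replicate 3 lay above 3 of the wild-type mice. The means of 3.14 ± 1.33 and 1.91 ± 0.876 TPM (SD, n = 5) differed by -0.50 (SE 0.251, limma, unadjusted p = 0.0697, adjusted p = 0.476). At this level, no transcript of Sox5 could be followed steadily. The most abundant, Sox5-201, held between 0.00215% and 67.6% of the gene's TPM in single mice.

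Sox6 (ENSMUSG00000051910, chr7:115470872-116038796), the other partner, was the most abundant of the SOX genes here and was higher in the null mice. The wild-type replicates stood at 12.4, 14.2, 27.1, 19.1 and 15.4 TPM. The null group, in the same order, had 27.5, 22.5, 23.4, 25.1 and 23.4 TPM. All 5 null mice lay above the wild-type mean, but wild-type replicate 3 reached the top of the null range. The means of 17.6 ± 5.84 and 24.4 ± 2.002 TPM (SD, n = 5) differed by 0.49 (SE 0.176, limma, unadjusted p = 0.0164, adjusted p = 0.342). The exact permutation p was 0.0397 over all mice. Sox6-210, the long coding form that carries the match to miR-324-3p, held 67.9% ± 10.8 of the gene in wild-type and 68.0% ± 8.12 in null mice (SD, n = 5), a difference of 0.164 percentage points (exact permutation p = 0.992). Fitted alone, that transcript was higher by 0.50.

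Among the matrix genes, Acan and Snorc had the lowest ratios of null to wild-type means. Acan (ENSMUSG00000030607, chr7:79053483-79115099) encodes aggrecan, the large proteoglycan that gives cartilage its stiffness under load. It stood at 287, 106, 72.8, 146 and 116 TPM in the wild-type replicates. Null mice stood at 75.1, 81.6, 65.5, 77.4 and 60.2 TPM. All 5 null mice were below the wild-type mean, and wild-type replicate 3 lay among them. The means were 146 ± 83.4 and 72.0 ± 8.82 TPM (SD, n = 5), a ratio of 0.494. The difference was -0.86 (SE 0.285, limma, unadjusted p = 0.0112, adjusted p = 0.331), with an exact permutation p of 0.0317. Without wild-type replicate 1 it was -0.57. Both annotated coding transcripts were present, and Acan-201 held 58.8% ± 2.62 of the gene in wild-type and 57.2% ± 2.78 in null mice (SD, n = 5).

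Snorc (ENSMUSG00000026258, chr1:87470271-87475482) encodes a small transmembrane proteoglycan of chondrocytes. Its wild-type replicates stood at 285, 121, 63.4, 181 and 91.2 TPM. Values in the null replicates were 54.0, 76.2, 69.8, 57.2 and 72.5 TPM. Again wild-type replicate 3 lay within the null range and replicates 1 and 4 far above it. The means of 148 ± 88.1 and 65.9 ± 9.79 TPM (SD, n = 5) differed by -0.97 (SE 0.327, limma, unadjusted p = 0.0118, adjusted p = 0.334), the largest difference of the 9, and by -0.69 without wild-type replicate 1. The exact permutation p was 0.0317. Its coding transcript Snorc-201 held 97.5% ± 0.786 of the gene in wild-type and 95.4% ± 1.56 in null mice (SD, n = 5, exact permutation p = 0.0159), which did not pass adjustment over the 7 members with several transcripts (adjusted p = 0.111).

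Hapln1 (ENSMUSG00000021613, chr13:89539796-89611652) encodes link protein, which locks aggrecan onto hyaluronan. It stood at 33.9, 16.2, 12.4, 28.5 and 18.9 TPM in the wild-type replicates. The Mir324-null mice had 9.03, 14.3, 13.9, 14.1 and 12.9 TPM. The null mice all lay below the wild-type mean, with wild-type replicate 3 among them and null replicate 1 apart at the bottom. The means of 22.0 ± 8.95 and 12.8 ± 2.20 TPM (SD, n = 5) differed by -0.66 (SE 0.243, limma, unadjusted p = 0.0192, adjusted p = 0.350, exact permutation p = 0.0476). Hapln1-201, the coding form, held 82.2% ± 13.5 and 78.9% ± 7.92 of the gene (SD, n = 5).

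Chad (ENSMUSG00000039084, chr11:94565047-94569127) encodes chondroadherin, a leucine-rich repeat protein that binds collagen and cells, and was the most abundant member. The wild-type replicates stood at 1200, 633, 498, 949 and 524 TPM. In the null group the values were 549, 644, 629, 539 and 529 TPM. The null values lay inside the wild-type range, which wild-type replicates 1 and 4 stretched upward. The means of 761 ± 304 and 578 ± 54.4 TPM (SD, n = 5) differed by -0.31 (SE 0.219, limma, unadjusted p = 0.178, adjusted p = 0.638), and by -0.13 without wild-type replicate 1.

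Comp (ENSMUSG00000031849, chr8:70373558-70382066) encodes cartilage oligomeric matrix protein, a thrombospondin also made in tendon, ligament and synovium. It stood at 487, 184, 141, 217 and 145 TPM in the wild-type replicates. Null replicates 1 to 5 had 254, 317, 353, 170 and 149 TPM. In contrast to Acan and Snorc, null replicates 1, 2 and 3 lay above 4 of the 5 wild-type mice, and the groups overlapped widely. The means were 235 ± 144 and 248.6 ± 89.0 TPM (SD, n = 5), a difference of 0.17 (SE 0.341, limma, unadjusted p = 0.626, adjusted p = 0.917) that ranged from 0.03 without null replicate 3 to 0.47 without wild-type replicate 1. It was also near 0 without wild-type replicate 3 (0.031), wild-type replicate 5 (0.039) or null replicate 2 (0.063).

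Cnmd (ENSMUSG00000022025, chr14:79637690-79662170) encodes chondromodulin, a transmembrane protein whose cleaved form keeps vessels out of cartilage. The wild-type replicates stood at 7.59, 7.75, 2.87, 12.8 and 3.99 TPM. Among null mice the values were 1.49, 9.20, 5.25, 2.20 and 3.24 TPM. Both groups spread widely, with the lowest value in null replicate 1. The means of 6.99 ± 3.88 and 4.28 ± 3.10 TPM (SD, n = 5) differed by -0.64 (SE 0.413, limma, unadjusted p = 0.146, adjusted p = 0.602). It was -0.41 without wild-type replicate 4 and -0.42 without null replicate 1.

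Matn3 (ENSMUSG00000020583, chr12:8947929-8972028), an adaptor of the matrilin family, was at or near 0. Its wild-type replicates stood at 0, 0.367, 0.0271, 0.364 and 0.0240 TPM. The null mice measured 0.0243, 0.822, 0.481, 0 and 0.0475 TPM. It was listed at 0 in 1 mouse of each genotype. It was below the filter of the fit across genes. Without that filter limma gave a difference of 0.11 (unadjusted p = 0.554, adjusted p = 0.883).

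Levels between genes can be compared in TPM, which is corrected for length. Ordered by the mean over 10 mice, Chad (669 TPM) came before Comp (242), Acan (109), Snorc (107), Sox6 (21.01), Hapln1 (17.4), Sox9 (7.79), Cnmd (5.63), Sox5 (2.52) and Matn3 (0.216). Neighbours in this order kept it in all 10 mice, with 3 exceptions. Acan exceeded Snorc in 6 of 10 mice and Sox9 exceeded Cnmd in 7 of 10, so neither pair was separated beyond the spread. Sox6 exceeded Hapln1 in 6 of 10, made up of 1 of 5 wild-type and 5 of 5 null mice.

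**Figure D2:**
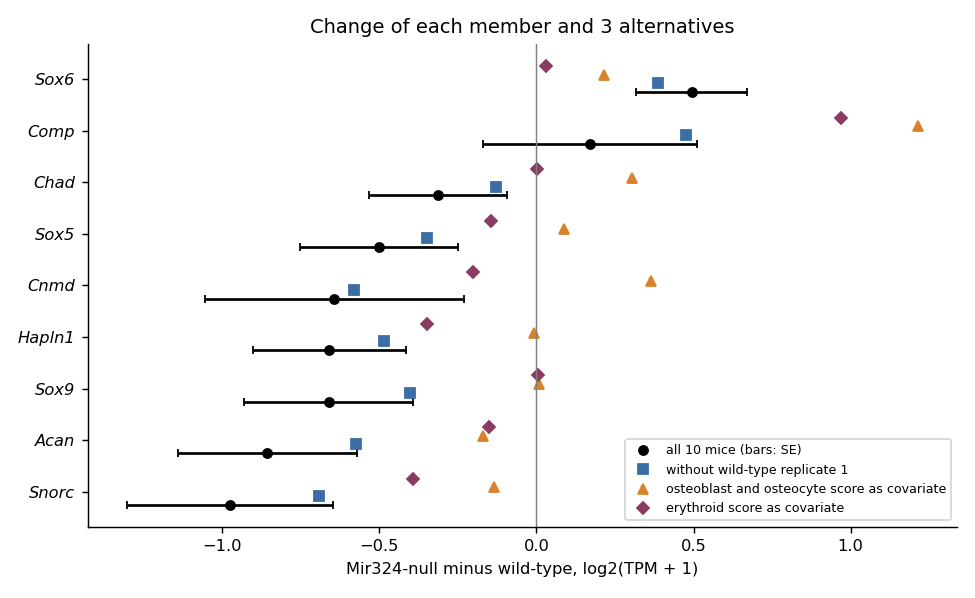
Difference between Mir324-null and wild-type means on the log2(TPM + 1) scale for the 9 members tested, from limma (black, bars are the standard error, n = 5 per genotype), beside 3 other fits drawn without errors. Without wild-type replicate 1 (squares) the differences of Acan and Snorc shrink to -0.57 and -0.69, and with a score of bone or red cell markers as a covariate the Sox9 difference lies at 0.01.

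The null mice were closer to each other than the wild-type mice for most members, a difference in spread that was not tested. The coefficient of variation was smaller in null mice for 7 of 9 members, beside 52.5% of all genes tested. Without wild-type replicate 1 these figures were 6 of 9 and 40.2%. For Acan it was 57.3% in wild-type and 12.3% in null mice, and 27.2% in wild-type without replicate 1. Sox9 likewise had 56.6% and 14.7%, and 27.0% in wild-type without that mouse. For Sox6 it was 33.2% and 8.21%, and 30.8% without that mouse. Cnmd and Sox5 were the exceptions. Wild-type replicate 1 held the highest value of all 10 mice for 7 of the 9 members (Sox9, Sox5, Acan, Comp, Hapln1, Chad and Snorc) and the lowest for Sox6. Null replicate 1 held the lowest value for 5 (Sox9, Sox5, Hapln1, Cnmd and Snorc) and the highest for Sox6. Leaving out wild-type replicate 1 left all 9 directions as they were, and 4 members were then lower at an unadjusted limma p under 0.05. In the exact test 0 members passed without it, as without wild-type replicate 2, 4 or 5. How many of all genes would pass the exact test was not counted.

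Markers of other tissues were high in these libraries, and none passed adjustment between genotypes. The label gives articular cartilage and chondrocytes, and Col2a1, the collagen II gene, averaged 75.2 TPM, but Col1a1 of bone averaged 1175 TPM and Hba-a1 of red cells 69389 TPM. Of 7 defining cartilage markers, 5 averaged between 7.79 TPM (Sox9) and 109 TPM (Acan), among them Col11a1 at 59.3 TPM, while Col9a1 and Matn1 were near 0, at 0.510 and 0.144 TPM. The 9 erythroid markers were all higher in the null group, and their sum lay between 112714 and 198907 TPM in wild-type and between 159317 and 263709 TPM in null mice. The 11 osteoblast and osteocyte markers were all lower, with sums from 6506 to 15029 TPM and from 3649 to 7507 TPM. The 6 osteoclast markers that were tested were all lower, with sums from 1406 to 3186 TPM and from 922 to 1904 TPM. The 7 neutrophil markers were all slightly lower, with sums from 55632 to 109003 and from 54585 to 111430 TPM. Of 8 synovial fibroblast and tendon markers tested, 7 were higher, with sums from 69.0 to 115 and from 73.1 to 161 TPM, and Tnmd of that list averaged 0.425 TPM. At an unadjusted limma p under 0.05, 10 of the 11 osteoblast and osteocyte markers (median -0.91) and 6 of 6 osteoclast markers (median -1.055) were lower, beside 7.3% of all genes. Higher at that threshold were 6 of the 9 erythroid markers (median 0.47), beside 4.28% of all genes. No neutrophil, synovial or tendon marker reached it. In tissue RNA such as this, fewer chondrocytes and less RNA per chondrocyte cannot be told apart, and the part of these tissues in the members' differences was not tested beyond the fits that follow.

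With the mean log2(TPM + 1) of the osteoblast and osteocyte markers as a covariate in limma, the differences of Acan and Snorc were -0.17 and -0.13, and that of Sox9 was 0.01. Comp moved the other way, to 1.21 (unadjusted p = 0.0011, adjusted p = 0.294 in limma, which is the lowest of 23 alternatives for Comp). With the erythroid score as covariate, a fit added after the data had been examined, the Sox6 difference fell from 0.49 to 0.03. The scores themselves differed by -0.86 and 0.52 between the genotype means, so that genotype and tissue composition cannot be told apart in these fits.

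Across the 10 mice, the members fell into patterns that the means alone do not show. Of 45 pairs, 23 had a correlation with an adjusted p under 0.05 (permutation test with 100000 resamples, two-sided, Benjamini-Hochberg over 45), of which 18 were positive and 5 negative. By rank correlation 11 of these 23 also passed, 8 positive and 3 negative. All 5 negative pairs contained Sox6. How often pairs of other genes would pass was not counted. Ordered by r with Sox5, Acan (0.700, one of the pairs that passed) stood 1359th of 13840 genes. Ordered by r with Sox9, Acan stood 16th. Pooled over the 10 mice, the highest Pearson r was that of Sox9 and Acan (r = 0.953, adjusted p = 0.00423, Spearman rho = 0.842, adjusted p = 0.0194, permutation tests). Without the 2 mice farthest from the median of Sox9, wild-type replicates 1 and 5, r was 0.838. Within the null mice alone it was 0.158. Hapln1 followed Sox9 with r = 0.931 and rho = 0.976 (permutation test, adjusted p = 0.0009 for both), 0.971 without the 2 farthest mice, 0.903 within wild-type and 0.875 within null mice.

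Sox9, Acan, Hapln1, Snorc and Chad, grouped after their values were seen, formed 10 pairs with r from 0.840 to 0.953. Centred within genotype the range was 0.820 to 0.953. Several of these rest on the highest mice: without wild-type replicates 1 and 4, r fell to 0.122 for Acan with Chad and 0.199 for Hapln1 with Chad. By rank correlation the pairs of Chad in this group did not pass (permutation tests, adjusted p from 0.124 to 0.167). Nor did Acan with Snorc (adjusted p = 0.0533). Within null mice alone r ran from -0.302 for Acan with Snorc to 0.875 for Sox9 with Hapln1, and was -0.021 for Acan with Hapln1. Sox6 ran against Snorc (r = -0.84), Sox9 (-0.84), Acan (-0.83), Hapln1 (-0.79) and Sox5 (-0.74), of which Snorc (rho = -0.95), Sox9 (-0.93) and Hapln1 (-0.90) also passed by rank. Centred within genotype, Sox6 and Sox9 still gave -0.73, and without the 2 farthest mice -0.66. Sox6 and Acan gave -0.74 within wild-type mice but 0.220 within null mice. Comp was less closely tied to the others over all 10 mice, with r between -0.28 and 0.71. Only its pair with Chad (0.7096, permutation test, adjusted p = 0.0428) passed, and without wild-type replicate 1 that r was 0.434. Centred within genotype, Comp gave higher values with the aggrecan group, from 0.617 with Hapln1 to 0.848 with Chad, and with Acan it gave 0.945 within wild-type and 0.315 within null mice.

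**Figure D3:**
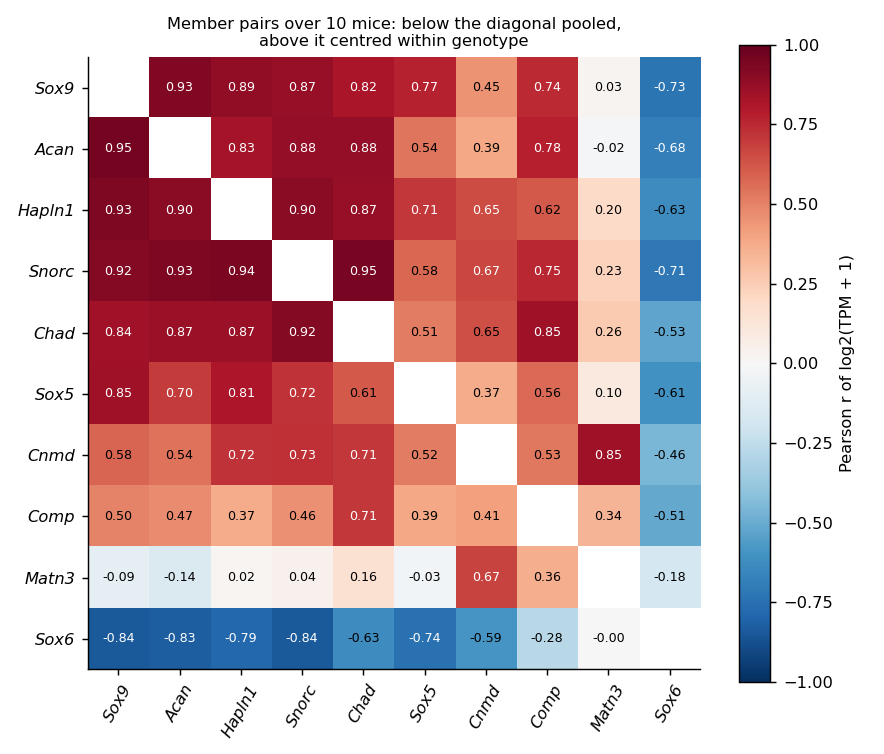
Pearson r of log2(TPM + 1) between members over 10 mice (colour, from -1 in blue to 1 in red), pooled below the diagonal and centred within genotype above it. The block of Sox9, Acan, Hapln1, Snorc and Chad holds values from 0.840 to 0.953 below the diagonal, while the Sox6 row is negative throughout, down to -0.84.

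The members were then set against 5 marker scores in 50 relations, of which 12 had an adjusted p under 0.05 (permutation tests, Benjamini-Hochberg over 50), 10 positive and 2 negative. How often other genes would pass with these scores was not counted. By rank correlation 1 of these 12 also passed, that of Comp with the synovial score. Sox6 rose with the erythroid score (r = 0.855, rho = 0.782, adjusted p = 0.0168 and 0.057, permutation tests). Centred within genotype r was 0.717, without wild-type replicates 1 and 5 it was 0.668, within wild-type mice 0.882 and within null mice 0.207. The 2 negative relations were those of Acan (r = -0.81, rho = -0.79) and Sox9 (r = -0.80, rho = -0.77) with that same score, with adjusted p of 0.0169 for each r in permutation tests. Sox9 fell to -0.50 without wild-type replicates 1 and 5.

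Comp rose with the synovial fibroblast and tendon score (r = 0.914, rho = 0.927, adjusted p = 0.0102 and 0.0125, permutation tests). That relation was 0.948 without its 2 farthest mice, 0.927 within wild-type and 0.947 within null mice. Acan had r = 0.191 with the same score over all mice, 0.843 within wild-type and 0.058 within null mice, which was not tested against that of Comp. Chad had 0.581 over all mice (permutation test, adjusted p = 0.163), but 0.976 within wild-type and 0.893 within null mice. With the osteoblast and osteocyte score, Comp itself had 0.480 over all mice, 0.932 within wild-type and 0.798 within null mice. Sox9, Acan, Hapln1 and Snorc rose with the osteoblast and osteocyte score, with r of 0.843, 0.838, 0.880 and 0.856 (permutation tests, adjusted p = 0.0102 for each). The rank correlations of these 4 did not pass (permutation tests, adjusted p from 0.0564 to 0.0569), and within null mice r was 0.667 for Sox9, 0.238 for Acan, 0.570 for Hapln1 and 0.395 for Snorc. Sox5 (r = 0.814, adjusted p = 0.0219) and Chad (0.804, adjusted p = 0.0213) also rose with that score in permutation tests. With the osteoclast score, Snorc (0.783, adjusted p = 0.0213) and Cnmd (0.785, adjusted p = 0.04) rose in the same tests. All values of a library share its fixed total. Under median ratio scaling, r with the erythroid score was 0.896 for Sox6 and -0.69 for both Acan and Sox9. With TPM rescaled without haemoglobin genes the genotype differences of Sox6, Acan and Sox9 were 0.59, -0.77 and -0.59.

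**Figure D4:**
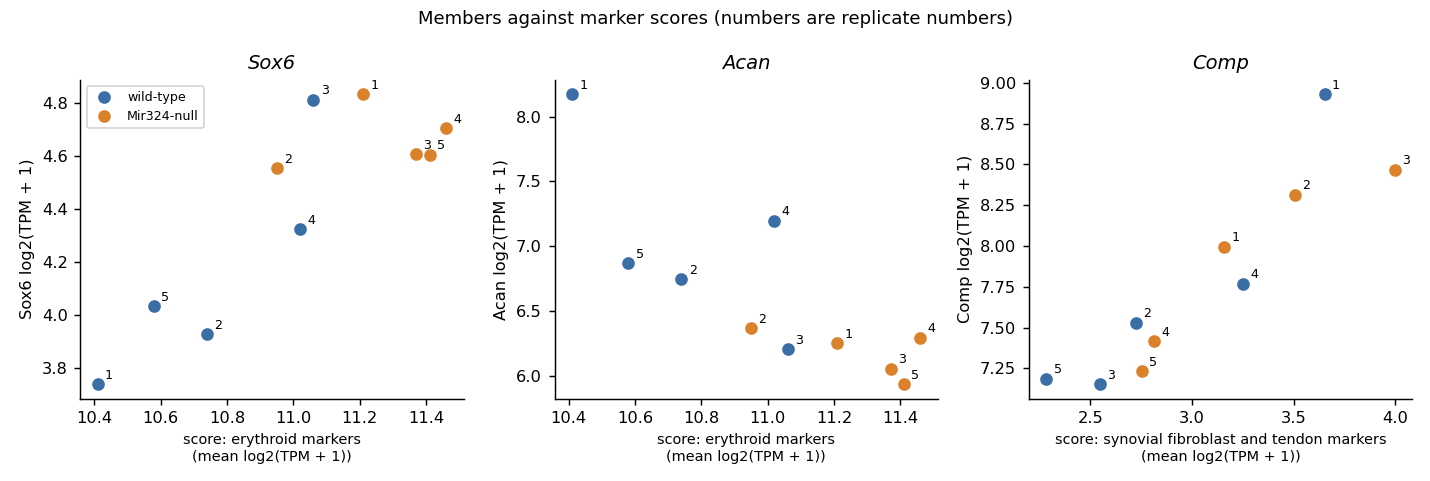
Log2(TPM + 1) of Sox6, Acan and Comp against marker scores (mean log2(TPM + 1) of the listed genes) in 5 wild-type and 5 Mir324-null mice, with points numbered by replicate. Sox6 rises with the erythroid score (r = 0.855), Acan falls with it (-0.81), and Comp rises with the synovial and tendon score (0.914).

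The genes most like each member were then listed. Each member was compared with 13840 genes by Pearson r of log2(TPM + 1) over the 10 libraries, and the 3 nearest were taken, as a description. Sox9 was nearest to Chst5 (0.992), Kcna6 (0.969) and Bmp2 (0.966), a growth factor of bone and cartilage, and Acan was 16th. Acan was nearest to Kcna6 (0.984), Cilp (0.981), a matrix protein of the middle layer of cartilage, and Colgalt2 (0.977). Hapln1 was nearest to Ucma (0.979), a secreted chondrocyte protein, Scin (0.978) and Col9a2 (0.977), a chain of collagen IX. Snorc was nearest to Atp5e (0.983), Fzd9 (0.980) and S100b (0.978), and Chad to Ngef (0.974), Gramd2 (0.967) and Rabac1 (0.961). Cnmd was nearest to Ppp1r12b (0.953), Adcy4 (0.952) and Fkbp11 (0.920), and Sox5 to Cyb561d2 (0.958), Itpr3 (0.954) and Ldb2 (0.949).

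Sox6 was nearest to Klf3 (0.946), a Krüppel-like factor, Fahd1 (0.941) and Ccdc92b (0.938). The red cell genes Slc4a1 and Epor stood at ranks 80 and 83 of 13840 for it, with r of 0.870 for each, and Col2a1 at rank 12568. Comp was nearest to Ecm2 (0.970), Fmod (0.969), the fibromodulin gene of tendon and cartilage, and Ly6a (0.964), a surface marker of stromal and blood stem cells.

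Because Col2a1 is itself a product of chondrocytes, each member was also set against it within each library, which removes the library's scaling apart from the pseudocount. The log2 ratio of Sox9 to Col2a1 differed by -0.01 between genotypes, that of Hapln1 by less than 0.01, and that of Cnmd by 0.01, each with both directions among the mice. Acan differed by -0.20, Snorc by -0.32, Sox5 by 0.15 and Chad by 0.34. The largest differences were those of Sox6, 1.15 higher (exact permutation p = 0.0476, adjusted over 10 members p = 0.159), and Comp, 0.83 higher (exact permutation p = 0.0159, adjusted p = 0.0794), and neither passed. For Comp the ratio was 1.76, 1.36, 1.08, 1.08 and 0.948 in wild-type replicates 1 to 5. In the null replicates it was 2.87, 2.065, 1.92, 1.698 and 1.80. Of the null mice, 4 exceeded every wild-type mouse, and replicate 4 fell just under wild-type replicate 1. Col2a1 itself was lower in null mice, at 91.4 ± 31.9 and 59.0 ± 24.1 TPM (SD, n = 5, limma, unadjusted p = 0.0387, adjusted p = 0.410). Matn3, near 0, gives a ratio that only mirrors Col2a1 and is left aside.

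**Figure D5:**
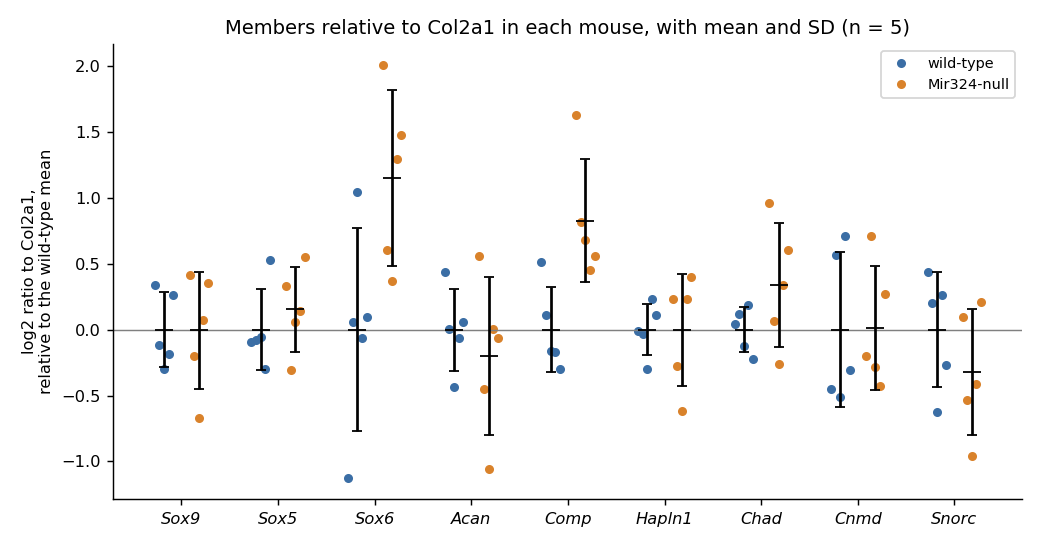
Log2 ratio of each member to Col2a1, computed on TPM + 1, in each mouse relative to the wild-type mean (points), with the mean and SD (bars, n = 5 per genotype). Comp (0.83) and Sox6 (1.15) lie above 0 in all 5 null mice, while Sox9, Hapln1 and Cnmd centre on 0.

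Other genes of the same biology were described from 3 lists. Of 24 cartilage matrix genes and SOX9 targets, 20 were tested, and 19 had lower and 1 higher means in null mice, with a median of -0.64 beside -0.05 over all genes. None passed adjustment, and 10 had an unadjusted limma p under 0.05 in the lower direction, beside 7.3% of all genes. That count was 4 without wild-type replicate 4, 5 without null replicate 1, 6 without wild-type replicate 1, without null replicate 5 or without haemoglobin genes, and 16 without wild-type replicate 3. The 10 were the collagen genes Col2a1 (-0.66), Col9a2 (-0.89), Col11a1 (-0.95) and Col11a2 (-0.68), the secreted products Cilp (-0.68), Ucma (-0.86) and Scrg1 (-0.66), the membrane protein Susd5 (-0.73), the sulphation enzyme gene Papss2 (-0.48), and Pth1r (-0.57), the receptor for parathyroid hormone. Prg4, the lubricin gene of the joint surface and the most abundant of the list, stood at 2902 ± 1492 and 1737 ± 411 TPM (SD, n = 5, limma, unadjusted p = 0.0585, adjusted p = 0.449). Fmod was the gene with a higher mean (0.31).

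The relatives of the members did not share one direction. Of 24, 14 were tested, 7 had lower and 7 higher means, and the median was -0.01. Sox4, another SOX factor, was the 1 gene of 14 with an unadjusted limma p under 0.05, a share near the 7.3% of all genes, at 18.8 ± 2.08 and 13.4 ± 3.43 TPM (SD, n = 5, adjusted p = 0.324). Thbs1, a thrombospondin related to Comp, stood at 60.4 ± 12.3 and 76.2 ± 14.2 TPM (SD, n = 5). Prelp, a leucine-rich relative of Chad, was close in both groups, at 70.9 ± 42.0 and 64.0 ± 18.8 TPM (SD, n = 5). The matrilins were low as a family, with Matn2 at a mean of 3.03 TPM as the highest.

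Of 20 further transcription factors and regulators of the chondrocyte, 16 were tested and all 16 had lower means, beside 60% of all genes, with a median of -0.25. Without wild-type replicate 1 the means of 12 were lower. With all mice, 3 of the 16 were lower at an unadjusted limma p under 0.05, beside 7.3% of all genes, and this count lay between 2 and 5 when single mice were left out. They were Mef2c (-0.33), a factor of maturing chondrocytes and of marrow cells, Nfia (-0.40) and Nfib (-0.47), and none passed adjustment. Runx1, a factor of cartilage and of blood progenitors, was among the most abundant, at 18.8 ± 1.87 and 16.8 ± 3.12 TPM (SD, n = 5), and Nfatc1 stood at 29.97 ± 5.26 and 23.4 ± 5.25 TPM (SD, n = 5).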

How the data were processed

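RNA was sequenced from 10 knee cartilage caps, 5 per genotype. The authors deposited TPM values per Ensembl mouse transcript. Kallisto is named in the submitters' processing notes, with no version, and the index is not given in the sources used here. Those notes also list GRCh38, a human build, with no role, although the rows are mouse transcripts. Columns were matched to mice by name, with 0 columns of other samples. Of 116912 transcripts, 115440 matched GENCODE M21 by identifier without version, and 1472 (0.275% to 0.356% of a library) were left out. TPM was summed per gene. Genes averaging 1 TPM or more were tested as log2(TPM + 1), a scale that understates changes of low genes, with limma 3.58.1 in R 4.3.3 (trend, two-sided, no covariate). Exact and permutation tests used numpy 2.4.6 in Python 3.11.15, with ranks from scipy 1.17.1. Depth is unknown, so no counting interval was made. Steps were tested on simulated data.

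The members and lists were chosen with earlier results of these data known. All members were named. Of the 3 lists around them, Col2a1, genes with an unadjusted p under 0.05 and the 3 most abundant could be named, as could the 3 genes most like each member. Marker scores are the mean log2(TPM + 1) of a list's tested genes. Other lists, with counts of lower genes, were B lineage (8 of 8), adipocyte (6 of 6), hypertrophic chondrocyte (5 of 5) and skeletal muscle (0 of 2), beside 60% of all genes. At an unadjusted limma p under 0.05, the lower genes were 4 of 8, 4 of 6, 3 of 5 and 0 of 2 in the same order. That held for 7.3% of all genes, and no gene of these lists passed adjustment. Alternatives covered the pseudocount, filter, scaling, variance model, covariates, transcript choice, the replicate number as a block, and each mouse left out. No check of the genotype labels on Mir324 was made, and its own level is not analysed here.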

Additional observations from a re-analysis of the deposited data

Results flagged for a closer look

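Hapln1 in Mir324-null replicate 1 stood apart from the other null mice. Its value of 3.33 on the log2(TPM + 1) scale (9.03 TPM) was the lowest of the 5, and its gap to the next mouse was 0.760 of the group's range, above the critical value of 0.71 for 5 samples. This was 1 of 54 groups examined, and chance alone gives such a gap in about 1 in 20. Without that mouse the Hapln1 difference was -0.55.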

How the results depend on the processing

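The count of 0 members past adjustment held under every alternative run, and the directions of the members tested held under each pseudocount, filter, scaling, variance model and left-out mouse in limma. Covariates changed them. With the osteoblast and osteocyte score, 0 members were lower at an unadjusted p under 0.05 and 3 estimates were below 0. The sign turned for Sox9 (0.0093), Sox5 (0.088), Chad (0.31) and Cnmd (0.36), and the 1 member higher was then Comp in place of Sox6. With the erythroid score, 0 were lower and 0 higher, and Sox9 (0.0066) and Chad (0.0035) turned. Leaving out mice gave 2 to 5 members lower, 4 to 16 cartilage list genes, 1 to 2 relatives and 2 to 5 regulators, the cartilage count being lowest without wild-type replicate 4 and highest when replicate 3 of that group was left out. Without haemoglobin genes the cartilage count was 6, and the regulators' count was 5 under median ratio and 5 under quantile scaling. The exact test passed 4 members as reported, 2 under median ratio scaling and 0 to 5 without single mice. The share of all genes that would pass it was not counted. Without null replicate 2, Matn3 differed by -0.027. Ratios to Col2a1 near 0 changed sign: over left-out mice Sox9 ranged from -0.11 to 0.16, Acan from -0.39 to 0.012, Hapln1 from -0.10 to 0.15 and Cnmd from -0.16 to 0.19. With a pseudocount of 0.1, Sox5 was at -0.034 and Cnmd at -0.13, and Cnmd was at -0.0054 under median ratio scaling. The median r of member pairs, 0.515, was 0.435 without the farthest 2 mice. The median r with scores, 0.229, was 0.430 centred, 0.384 without the farthest 2 mice and 0.118 under median ratio scaling. The causes were not tested.

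Replicate numbers are shared between genotypes in the titles only. Same-numbered mice did not deviate together, with r between -0.14 and 0.056, and no null mouse correlated best with its own number. As a replicate block in limma, the numbers left 0 members past adjustment, and 4 lower and 1 higher at an unadjusted p under 0.05. Under the paired sign-flip test 0 members passed, since 5 pairs cannot give a p below 0.0625.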
